A study of Mus musculus with 6 samples.

Results

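The 9 genes described here make, branch and break down liver glycogen: Gys2, Pygl, Gyg, Gbe1, Ugp2, Ppp1r3b, Ppp1r3c, Phka2 and Phkb. They were taken by name as a list of liver glycogen enzymes and glycogen-targeting phosphatase subunits, 9 genes of 20416 with a value, and each was summarised by averaging the probe sets that the platform annotation gave to that gene alone. All 9 were found, on 156 probe sets. Glycogen genes were measured in primary hepatocytes of 3 miR-143DOX mice, adult C57BL/6 animals transgenic for a doxycycline-inducible miR-143 allele, and of 3 wildtype littermates of the same strain (control). For 8 days all 6 mice were kept on water that held 4 mg/ml doxycycline and 10% sucrose, so the control mice had the drug and the sugar without the transgene. miR-143 belongs to the microRNAs, short RNAs that pair with transcripts and lower their level or their translation. The sources used here do not name the promoter that drives the transgene. Each mouse gave 1 Affymetrix array, read as log2 intensity, and levels are not compared between genes, since probe sets differ in brightness.

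Hepatocytes store glucose as glycogen after a meal and release it in a fast. UDP-glucose, made by the Ugp2 enzyme, is the building block. The glycogenin gene Gyg codes for the protein primer, the synthase gene Gys2 for the enzyme that lengthens the chains, and Gbe1 for the branching enzyme. The phosphorylase gene Pygl codes for the enzyme that cuts glucose off the chains, and phosphorylase kinase, with the subunits Phka2 and Phkb, activates phosphorylase. Ppp1r3b and Ppp1r3c code for subunits that bring protein phosphatase 1 to the glycogen particle, where it activates the synthase and inactivates the phosphorylase. The comparison asks whether these transcripts differ in hepatocytes when miR-143 is induced.

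No glycogen gene passed the test between the genotypes, and for most of them mice of 1 group differed more from each other than the group means did. Of the 9, 0 passed a false discovery rate (FDR) of 5% over the 15312 genes tested with limma (adjusted p = 0.9997 each), where 0% of all genes passed, and 0 had an unadjusted p under 0.05, against 3.06% of all genes tested. Differences (miR-143DOX minus control, log2) lay above 0 for 7 genes and below 0 for 2, with a median of 0.05, beside 52.4% of all genes above 0 and a median of 0.01 over all genes tested. For 8 of the 9 genes the 95% interval of the difference lay within 1.5-fold either way. The exception was Ppp1r3c, whose interval ran from 0.874-fold to 2.63-fold. That count of 8 was 4 without miR-143DOX replicate 2 or control replicate 3, 5 without miR-143DOX replicate 3 or control replicate 2, and 0 when each gene was read from its brightest probe set alone. In a whole hepatocyte preparation, fewer cells of a type and less RNA per cell cannot be told apart.

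**Figure D1:**
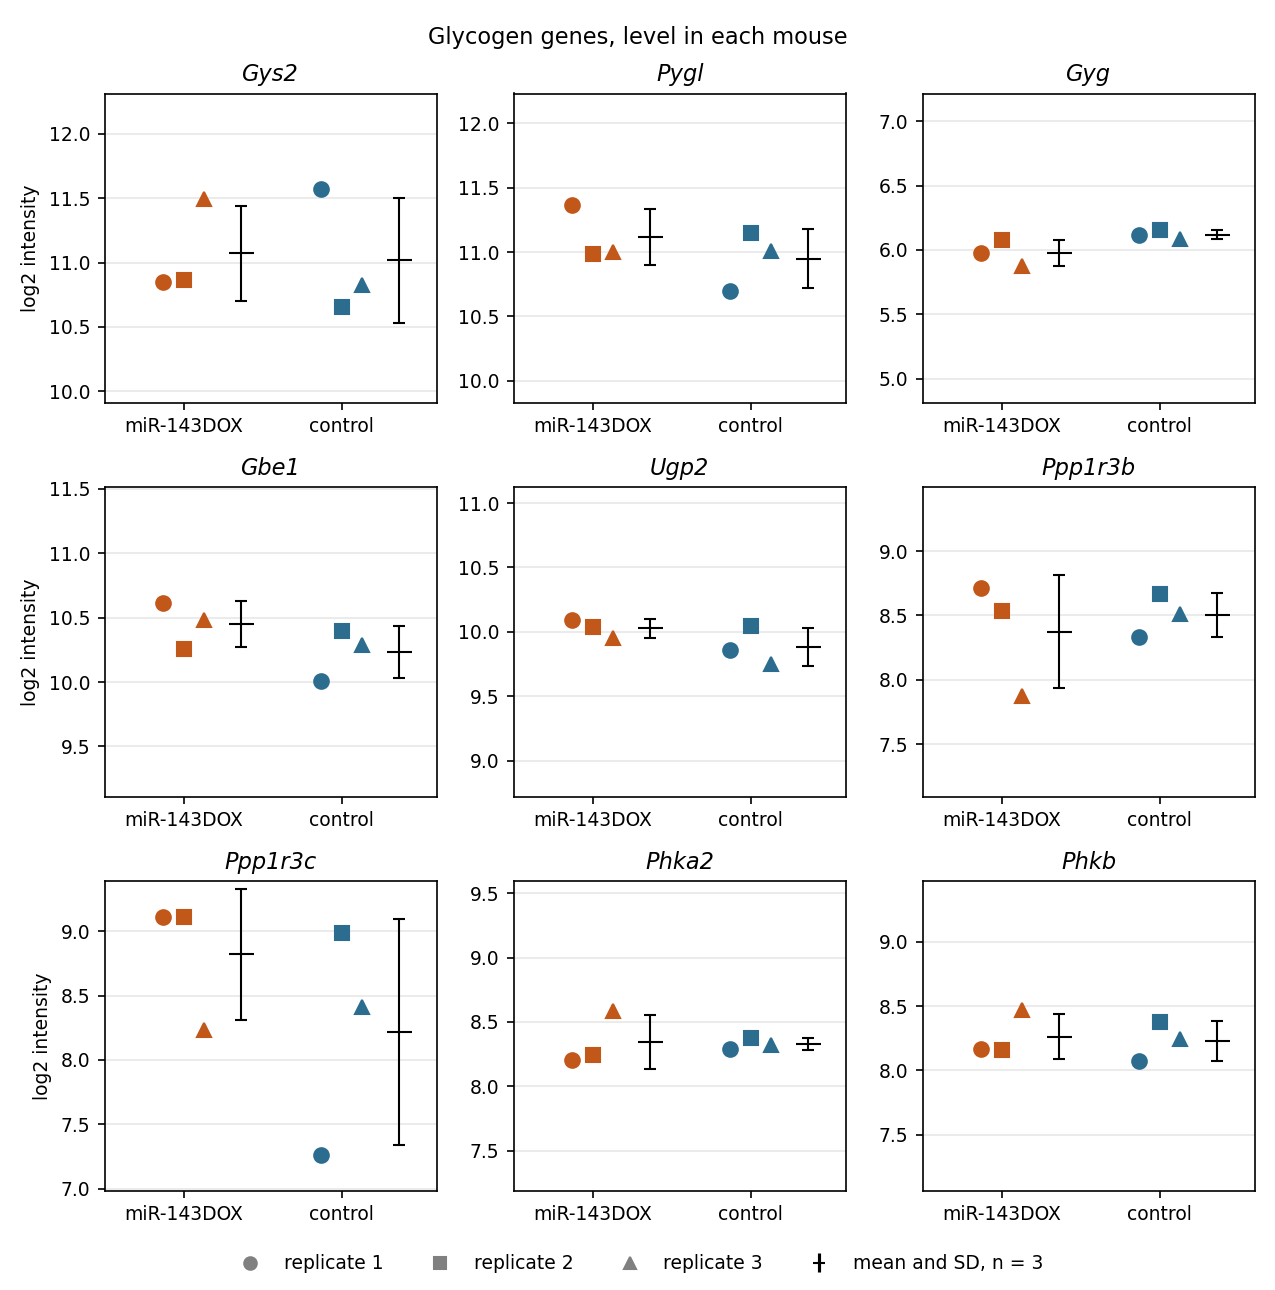
Level of each glycogen gene in each mouse (log2 intensity, miR-143DOX left of control), with symbols for the replicate, and the mean and SD of 3 mice beside them. Every panel spans the same log2 range, so the wide spread of Ppp1r3c and Gys2 and the narrow spread of Gyg and Ugp2 can be read off directly. Only Gyg had groups that did not overlap.

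The genes that supply, start and branch the chains showed small differences or overlapping groups. Ugp2, for the UDP-glucose pyrophosphorylase, measured 10.09, 10.04 and 9.95 in miR-143DOX mice 1 to 3, against 9.86, 10.04 and 9.75 in control mice 1 to 3 (log2). The groups overlapped through control replicate 2 alone, and the difference was 0.14 with a standard error of 0.13. It was 0.22 without control replicate 2, 0.076 without control replicate 3 and 0.025 with the median of the probe sets in place of their mean. Its 15 probe sets ran from -0.51 to 0.51, with 11 above 0.

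Gbe1, for the branching enzyme, measured 10.61, 10.26 and 10.49 in miR-143DOX mice, against 10.01, 10.40 and 10.29 in control mice (log2). The lowest miR-143DOX mouse lay below 2 of the control mice. The difference was 0.22 (standard error 0.15, 95% interval -0.12 to 0.55). It was 0.11 without control replicate 1, the lowest array for this gene. Of its 16 probe sets, 14 lay above 0 and 5 had groups that did not overlap, all 5 higher in miR-143DOX, where 8.88% of all probe sets tested did not overlap in either direction. Probe sets of a gene share its RNA and are not replicates, and 0 of the 16 had an unadjusted p under 0.05. The brightest of them measured 12.14, 11.88 and 11.84 in miR-143DOX mice against 11.57, 11.70 and 11.59 in control mice, a difference of 0.33 with a standard error of 0.20 (limma adjusted p = 0.997 over 159073 probe sets).

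Gyg, for the glycogenin that primes a new particle, was the 1 member of 9 whose groups did not overlap, against 7.13% of all genes tested in either direction and 3.73% lower in miR-143DOX. It measured 5.98, 6.08 and 5.87 in miR-143DOX mice, against 6.11, 6.16 and 6.09 in control mice (log2), so the gap between the groups was small. The difference was -0.14 (standard error 0.13, 95% interval -0.42 to 0.14), and the interval reached 1.10-fold higher. Without miR-143DOX replicate 3 the difference was -0.091. The mean rests largely on dim probe sets. Of its 9 probe sets, 4 lay above 0 and 5 below, from -0.83 to 0.53, where 50.8% of all probe sets tested lay above 0, and their mean levels ran from 3.85 to 10.66, while genes with a mean under 5.06 were left out of the test as dim. The brightest probe set went the other way, at 11.10, 11.03 and 10.19 in miR-143DOX mice against 10.69, 10.37 and 10.55 in control mice, a difference of 0.23 with overlapping groups.

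**Figure D2:**
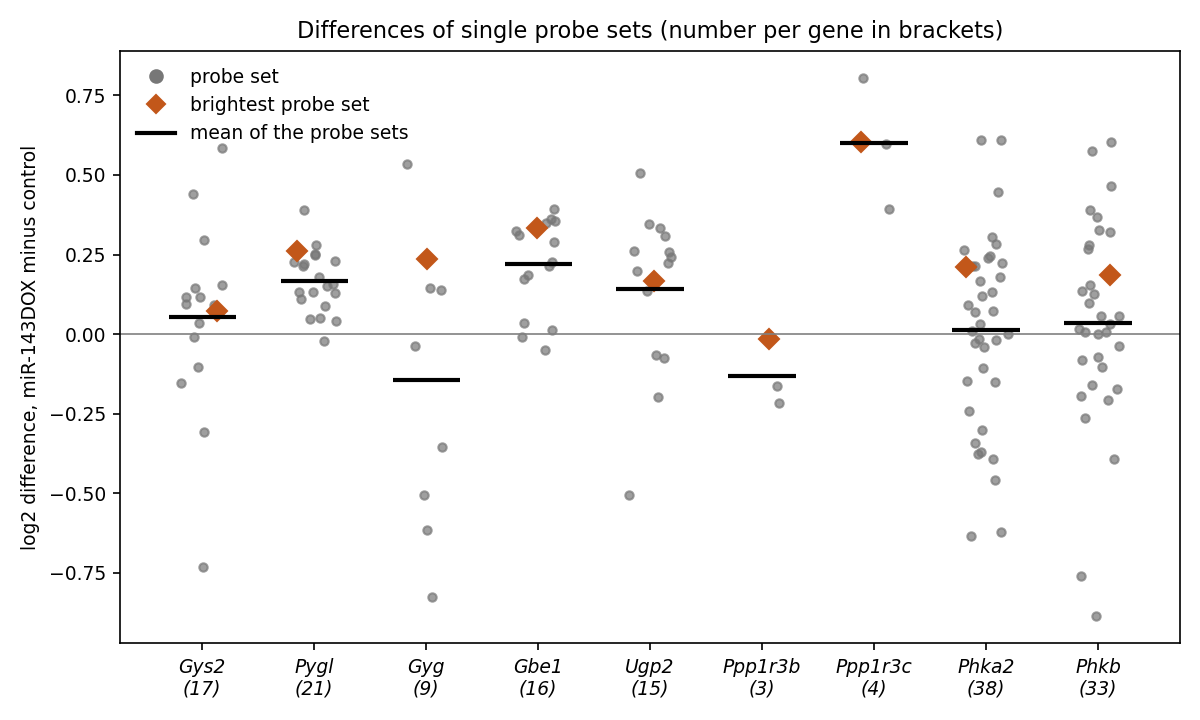
Difference of every probe set of the 9 genes (log2, miR-143DOX minus control), with a diamond for the brightest of each gene and the mean over the gene's probe sets as a bar. The 4 probe sets of Ppp1r3c all lay above 0 and the 3 of Ppp1r3b below 0, while those of Gyg, Phka2 and Phkb lay on both sides.

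Gys2, for the liver glycogen synthase, varied widely within both groups. It measured 10.85, 10.87 and 11.50 in miR-143DOX mice, against 11.57, 10.66 and 10.83 in control mice (log2). One mouse of each group, miR-143DOX replicate 3 and control replicate 1, stood above the other 4, and the difference between the groups was 0.05 with a standard error of 0.24. The difference between genotypes held 0.584% of the sum of squares of the 6 values, and the rest was spread within the groups. The difference was 0.33 without control replicate 1, -0.16 without miR-143DOX replicate 3, -0.13 with control replicate 2 left out and -0.041 with control replicate 3 left out. Of 17 probe sets, 12 lay above 0, from -0.73 to 0.58.

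Pygl, for the liver phosphorylase, measured 11.36, 10.99 and 11.00 in miR-143DOX mice, against 10.70, 11.14 and 11.01 in control mice (log2). The highest value was in a miR-143DOX mouse and the lowest in a control mouse, and of the other 4 both miR-143DOX mice lay below both control mice. The difference was 0.17 (standard error 0.16, 95% interval -0.19 to 0.52), and 20 of its 21 probe sets lay above 0, with 0 of them free of overlap. It was 0.041 when control replicate 1 was left out and 0.044 when miR-143DOX replicate 1 was.

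The subunits of phosphorylase kinase had the smallest differences of the 9 genes. Phka2, for the liver form of the regulatory alpha subunit, measured 8.20, 8.24 and 8.58 in miR-143DOX mice, against 8.29, 8.38 and 8.32 in control mice (log2), a difference of 0.01 (95% interval -0.30 to 0.32). Phkb, for the beta subunit, measured 8.17, 8.16 and 8.47 in miR-143DOX mice, against 8.07, 8.37 and 8.24 in control mice, a difference of 0.03 (-0.28 to 0.35). Both were highest in miR-143DOX replicate 3. Without that array the difference was -0.11 for Phka2 and -0.067 for Phkb, and without control replicate 1 it was -0.0080 for Phka2 and -0.045 for Phkb. Their deviations from their own means over the 6 arrays differed by a root mean square of 0.068, the smallest of the 36 pairs of members. Phka2 also held the 2 probe sets of the 156 with an unadjusted p under 0.05, against 4.17% of all probe sets tested, and they pointed opposite ways, at -0.62 and 0.61 (limma adjusted p = 0.997 each).

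**Figure D3:**
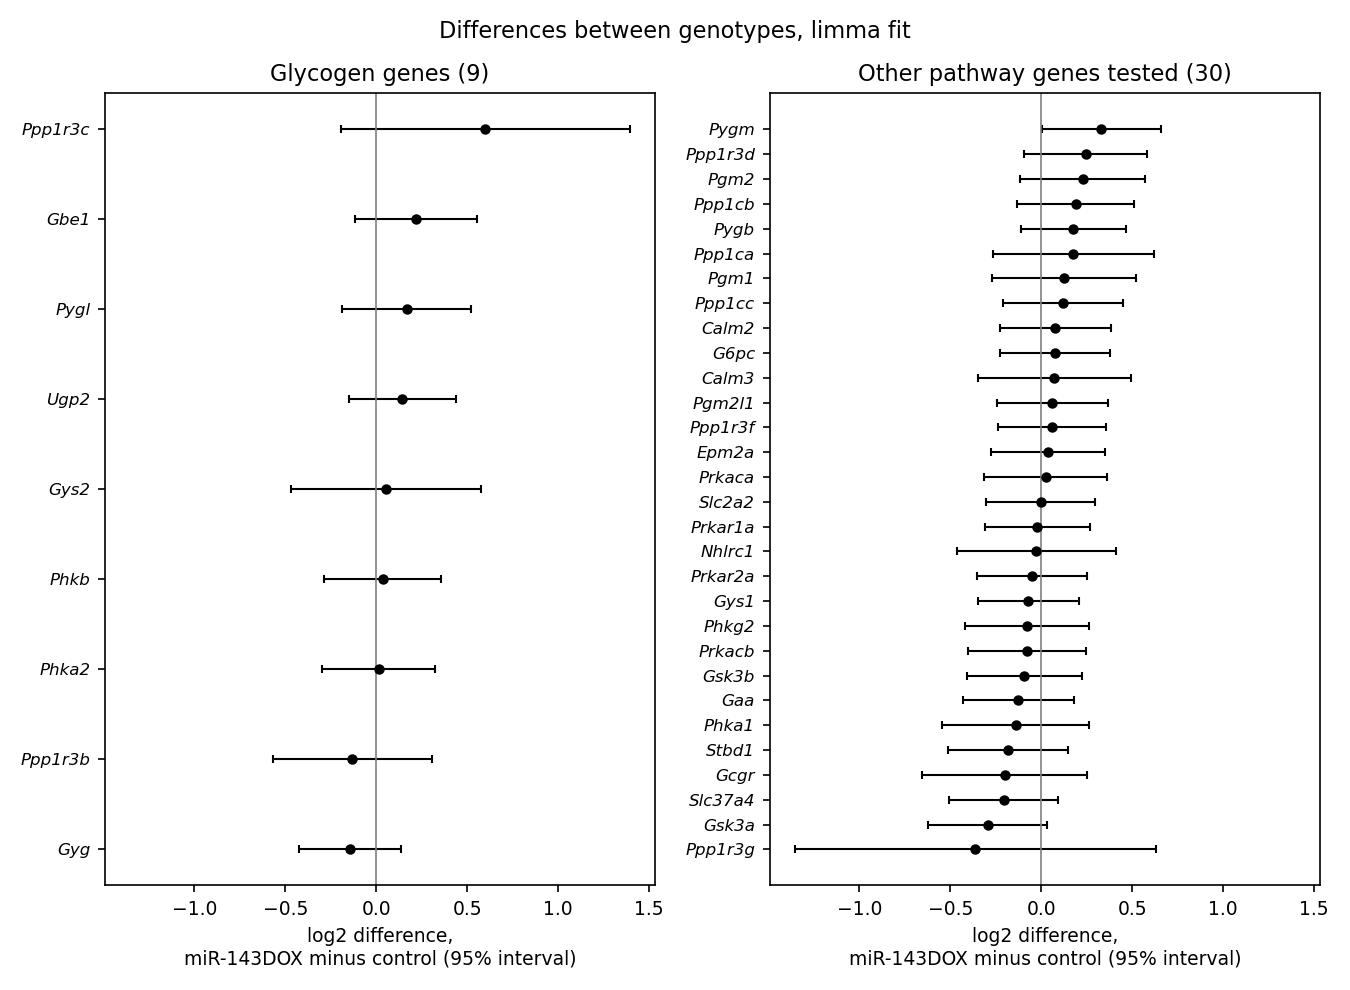
Differences between the genotypes (log2, miR-143DOX minus control) with 95% intervals from the limma fit, for the 9 glycogen genes on the left and for the 30 other glycogen pathway genes tested on the right. Every interval on the left spans 0, and Ppp1r3c has the widest; on the right, only that of Pygm lies above 0.

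The phosphatase subunits also varied widely from mouse to mouse. Ppp1r3b, the main glycogen-targeting subunit of liver, measured 8.71, 8.53 and 7.88 in miR-143DOX mice, against 8.33, 8.67 and 8.51 in control mice (log2). The low value of miR-143DOX replicate 3 set the sign: the difference was -0.13 with a standard error of 0.20, and 0.12 without that mouse. All 3 of its probe sets lay below 0, and its brightest, at -0.016, was near it.

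Ppp1r3c, the subunit also called protein targeting to glycogen, had the largest difference and the largest spread. It measured 9.11, 9.11 and 8.23 in miR-143DOX mice, against 7.26, 8.98 and 8.41 in control mice (log2). The groups overlapped: control replicate 2 lay beside the upper miR-143DOX mice, miR-143DOX replicate 3 lay below 2 control mice, and control replicate 1 stood far below all others. The means were 8.82 ± 0.51 in miR-143DOX and 8.22 ± 0.88 in control (SD, n = 3 each), a difference of 0.60 (standard error 0.36, 95% interval -0.19 to 1.40), or 1.52-fold. Its limma adjusted p was 0.9997 (unadjusted 0.125). The 4 probe sets differed by 0.39 to 0.81, so all 4 pointed the same way. Leaving out control replicate 1 gave 0.12, leaving out control replicate 2 gave 0.98, and leaving out miR-143DOX replicate 3 gave 0.89. In the last pair of settings its unadjusted p was 0.0108 and 0.0441, and the adjusted p was above 0.6 in all 17 alternatives run (smallest 0.664).

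Ppp1r3c, Gys2 and Ppp1r3b were also the members with the most residual spread, at the 99.6th, 97.4th and 92.5th percentile of the moderated residual SD among all genes tested. The other 6 members lay between percentiles 5.03 and 69.6. The spread of Ppp1r3c and Gys2 ran alongside that of Dbp and Arntl, a pair of clock genes whose levels run in opposite phase over the day. Dbp measured 6.99, 8.14 and 9.35 in miR-143DOX mice, against 10.08, 8.06 and 8.04 in control mice (log2), and Arntl 8.24, 7.25 and 6.35 in miR-143DOX mice, against 5.56, 7.80 and 7.19 in control mice. Control replicate 1 and miR-143DOX replicate 3 had the highest Dbp and the lowest Arntl, the highest Gys2 and the lowest Ppp1r3c of the 6 arrays. Ppp1r3b followed this less closely: miR-143DOX replicate 3 lay at -0.56 from its mean and control replicate 1 at only -0.11. The sources used here do not state the time of day at which each mouse was perfused.

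**Figure D4:**
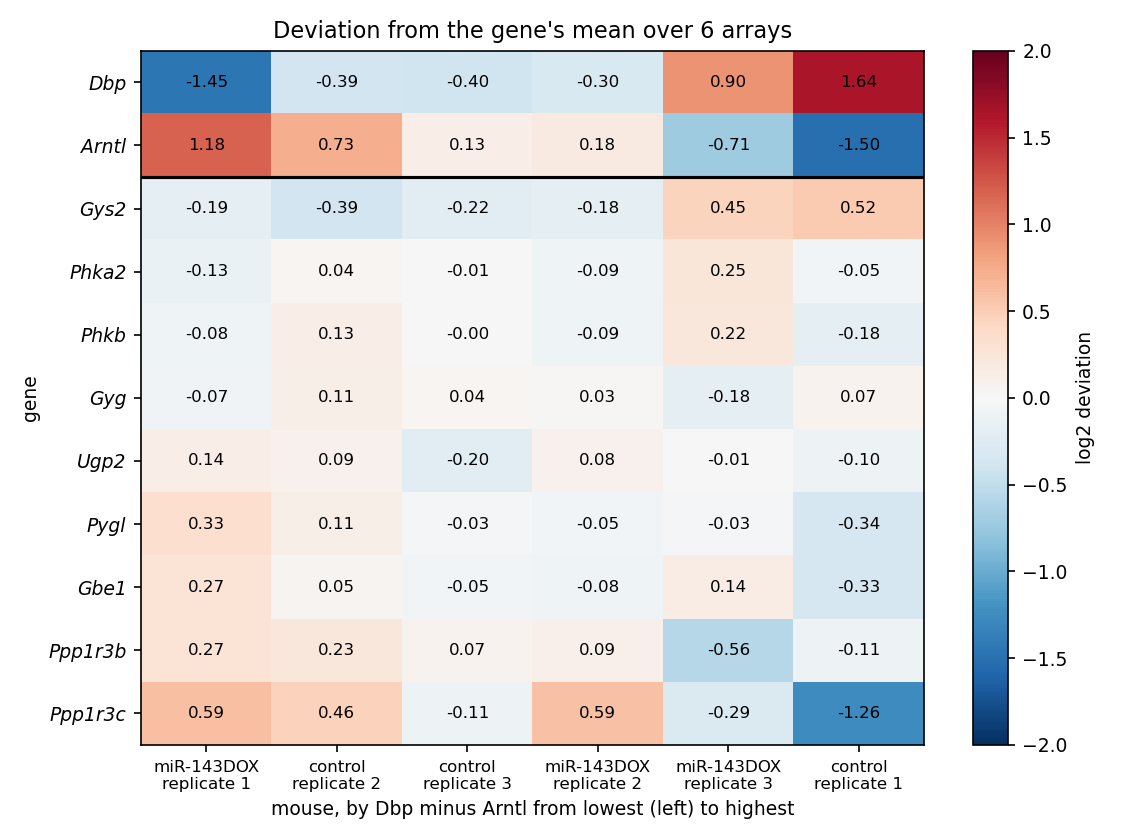
Deviation of each gene from its own mean over the 6 arrays (log2), with the mice in order of Dbp minus Arntl from lowest to highest and both genotypes mixed. Gys2 was high and Ppp1r3c low in the 2 mice on the right, miR-143DOX replicate 3 and control replicate 1, while Gyg, Ugp2, Phka2 and Phkb stayed within 0.25 of their means in every mouse.

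When Dbp minus Arntl was added to the fit as a straight line, Ppp1r3c had a slope of -0.30 for each log2 unit of it and Gys2 one of 0.18, which was as steep as those of 0.137% and 0.751% of all genes tested. For Ppp1r3b the slope was -0.13, as steep as for 2.29% of genes, and for Pygl -0.092, as steep as for 6.18%. The standard error of the genotype difference was 0.20 with this term and 0.36 without it for Ppp1r3c, and 0.15 with it and 0.24 without it for Gys2. Over all genes tested the median ratio of the standard errors was 1.07, so for most genes the term did not narrow the error. The genotype differences with the term were 0.31 for Ppp1r3c, 0.24 for Gys2 and -0.26 for Ppp1r3b (limma adjusted p = 0.9999 each). The slopes describe these 6 arrays, on which the pattern was first seen, and what sets the spread was not tested.

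The mice at the ends of that scale were 1 of each group, miR-143DOX replicate 1 at -1.25 and control replicate 1 at 4.52 (Dbp minus Arntl, log2). Without both, the difference of Ppp1r3c was -0.026 (95% interval -0.57 to 0.52), that of Gys2 was 0.44 (-0.0080 to 0.89) and that of Pygl was -0.082 (-0.46 to 0.29). The order of the members by their difference therefore depended on which mice were in the fit. Leaving out both ends did not level the groups on that scale. miR-143DOX replicates 2 and 3 lay at 0.90 and 3.00, and control replicates 2 and 3 at 0.26 and 0.85. These differences are therefore not free of Dbp minus Arntl.

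**Figure D5:**
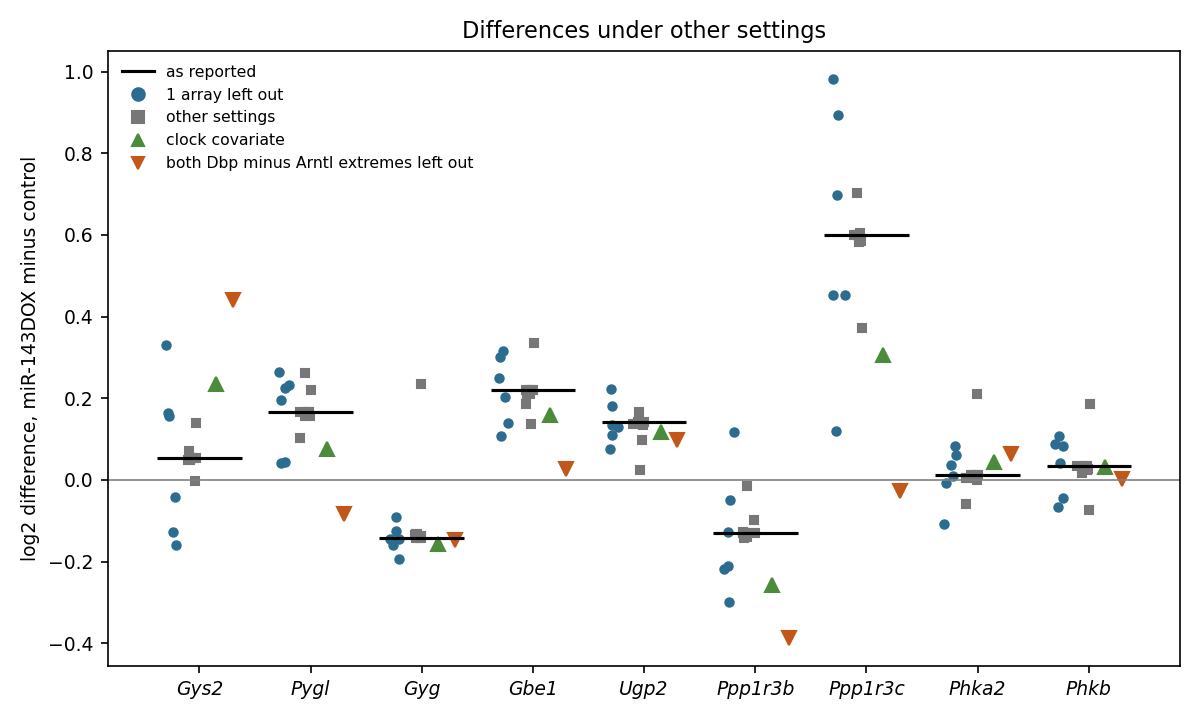
Difference of each glycogen gene (log2, miR-143DOX minus control) as reported and under 17 alternatives: each array left out in turn, other processing settings, a clock covariate and both arrays at the extremes of Dbp minus Arntl left out. Ppp1r3c ranged from -0.026 to 0.98, and Gys2, Ppp1r3b, Phka2, Phkb, Gyg and Pygl took both signs, while Gbe1 and Ugp2 stayed above 0.

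The promoter of Ppp1r3c is shown because this gene had the steepest slope against Dbp minus Arntl among the members. RefSeq promoters (build GRCm38.p6, 250 bases before to 50 after the start) were matched by symbol for 7 of the 9 genes, 8 promoters in all, without Gys2 and Ppp1r3b. They were searched for the E-box CACGTG, which reads the same on both strands and which the ARNTL protein binds together with CLOCK, as do other factors of that class. The E-box was in 2 of the 8, those of Ppp1r3c and Gyg, and in 7.15% of 32851 promoters of this length. The Ppp1r3c promoter lies at chr19:36736555-36736854 on the minus strand, and its E-box, in capitals, begins 104 bases before the start:
Ppp1r3c: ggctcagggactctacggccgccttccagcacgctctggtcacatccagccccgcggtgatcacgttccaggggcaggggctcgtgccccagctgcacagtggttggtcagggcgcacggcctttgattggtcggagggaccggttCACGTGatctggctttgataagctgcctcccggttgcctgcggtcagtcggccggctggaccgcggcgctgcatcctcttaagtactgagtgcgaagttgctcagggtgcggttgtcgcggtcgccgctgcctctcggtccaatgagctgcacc
The Gyg E-box begins 8 bases after the start. Averaged over its probe sets, most of them dim, Gyg showed little spread between mice. Its brightest probe set did vary, from 10.19 in miR-143DOX replicate 3 to 11.10 in miR-143DOX replicate 1 (log2). Control replicate 1, the highest in Dbp minus Arntl, measured 10.69 on it, above the other control mice at 10.37 and 10.55. The 30 bases around the Gyg E-box, chr3:20155091-20155120 on the minus strand, are given for comparison with the same stretch of Ppp1r3c:
Gyg: agcctgcgcggcCACGTGacggccgctata
Ppp1r3c: gagggaccggttCACGTGatctggctttga
The D-box TTANGTAA, the element DBP binds as written here, was on either strand in 0 of the 8 promoters and in 2.32% of all, and the cAMP response element TGACGTCA in 0 of the 8 and in 1.79% of all. With the E-box alone present, no motif overlapped another. A match of letters is a description and does not show binding. Whether the E-box bears on the slope of Ppp1r3c, which was -0.30, was not tested.

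The tested genes whose deviations over the 6 arrays lay nearest to those of Ppp1r3c, by root mean square difference and with predicted genes skipped, were Clpx (0.16), Aqp8 (0.18), Rhox6 (0.20), Me1 (0.26) and Tubb2a (0.29). Clpx, for a subunit of a mitochondrial protease, measured 10.66, 10.23 and 9.39 in miR-143DOX mice, against 8.64, 10.47 and 9.83 in control mice (log2). The water channel gene Aqp8 measured 11.25, 10.77 and 9.87 in miR-143DOX mice, against 9.01, 10.79 and 10.00 in control mice. Both were lowest in control replicate 1 and next lowest in miR-143DOX replicate 3, as Ppp1r3c was. They were picked for nearness to Ppp1r3c on these same arrays, so the shared order follows from the choice. Among the members, Pygl and Gbe1 lay near each other (0.082), and Gys2 and Ppp1r3c were farthest apart of the 36 pairs (0.97).

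The wider glycogen pathway was read from a written list of 35 other genes, of which 32 had a value and 30 were tested. The list holds synthase, phosphorylase and phosphatase forms of other tissues, the kinases that act on them and the genes that carry glucose out of the cell. Of the 30, 15 lay above 0 and 15 below, with a median of 0.01, 0 passed 5% FDR, and at an unadjusted p under 0.05 1 was higher and 0 were lower, beside 1.38% of all genes tested that were higher and 1.68% that were lower. That gene was Pygm, the muscle phosphorylase, at 6.14, 6.21 and 5.74 in miR-143DOX mice against 5.70, 5.67 and 5.73 in control mice (log2). The groups did not overlap but met closely at miR-143DOX replicate 3, and the difference was 0.33 (standard error 0.15, limma adjusted p = 0.9997). With its brightest probe set the difference was -0.18.

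The next genes of that list by unadjusted p were a kinase, a phosphatase subunit and a transporter. Gsk3a, for a kinase that inactivates glycogen synthase, measured 7.29 ± 0.20 in miR-143DOX and 7.59 ± 0.15 in control (log2, SD, n = 3 each), a difference of -0.29 with a standard error of 0.15. The groups overlapped, and the difference was -0.065 with its brightest probe set and -0.18 without miR-143DOX replicate 1. Ppp1r3d, another glycogen-targeting subunit, read by 1 probe set, measured 6.40 ± 0.26 in miR-143DOX and 6.15 ± 0.09 in control, and its difference of 0.24 was 0.093 without miR-143DOX replicate 2. Slc37a4, the transporter that takes glucose 6-phosphate into the endoplasmic reticulum, measured 11.14 ± 0.16 in miR-143DOX and 11.35 ± 0.08 in control, a difference of -0.21 with a standard error of 0.14. It was -0.13 without miR-143DOX replicate 1. The only other gene of the list without overlap was the brain phosphorylase Pygb, at 5.96, 6.09 and 6.10 in miR-143DOX mice against 5.95, 5.75 and 5.91 in control mice. Like Pygm, Pygb was dim, with means of 6.05 in miR-143DOX and 5.87 in control. So 2 of 30 genes did not overlap, both higher in miR-143DOX, against 3.40% of all genes tested in that direction.

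Among the other glycogen-targeting subunits, Ppp1r3g stood out after its values were seen, and only through 1 mouse. Its single probe set measured 6.83, 6.43 and 6.82 in miR-143DOX mice, against 8.52, 6.47 and 6.18 in control mice (log2). The value of 8.52 was in control replicate 1, the mouse with the lowest Ppp1r3c and the highest Gys2.

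The 10 defining markers of hepatocytes, albumin among them, had mean levels of 13.54 to 13.55 in miR-143DOX and 13.47 to 13.59 in control arrays (log2). All 10 passed the filter on dim genes. So did all 10 sinusoidal endothelium, all 10 Kupffer cell and all 8 stellate cell markers, so passing it cannot check the hepatocyte label. Of 10 sinusoidal endothelium markers 9 lay below 0 (array means 7.32 to 7.81 in miR-143DOX and 7.64 to 7.77 in control), of 10 Kupffer cell markers 8 lay above 0 (7.03 to 7.37 in miR-143DOX and 7.12 to 7.20 in control), and of 8 stellate cell markers 6 lay above 0 (6.71 to 6.95 in miR-143DOX and 6.61 to 6.78 in control). Of 5 cholangiocyte markers 4 were tested, 2 above and 2 below 0, and of 6 lymphocyte and neutrophil markers only 1 was bright enough to be tested. The array means of these lists overlapped between the groups, but some single markers did not. Clec4g, Spp1, Timd4 and Apoa1 were lower in miR-143DOX without overlap, and Pdgfrb and Hhip higher, where 7.13% of all genes tested did not overlap. The difference was -0.37 for Clec4g and -0.32 for Spp1 (limma unadjusted p = 0.0245 and 0.0379, adjusted p = 0.9997 each). The part of these cell types in the glycogen gene values was not tested. Across probe sets, Pearson r between arrays lay between 0.936 and 0.954.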

How the data were processed

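Affymetrix array values of 6 hepatocyte samples were used, 3 per genotype, each from its own mouse per the labels. The values the authors deposited ran from 1.60 to 15.2 and were read as log2, a base no source states. Per the submitters' processing notes the software was Partek (no version), and the sources used here do not state the background correction, normalization or summarization. The 95th percentiles of the arrays differed by up to 0.135, so the log2 values were quantile normalized. Of 234873 probe sets, 212097 named 1 gene and were averaged into 20416 genes. The lowest 25% by mean were left out, which left 15312. Without a detection call, low values may be background, and the number of arrays limits the precision. Symbols are those of the platform annotation, which gave no Entrez IDs, so the phosphoglucomutase genes were matched by symbol and are not named in the text.

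The genotypes were compared in R 4.3.3 with limma 3.58.1 (group as the single term, lmFit then eBayes, two-sided, Benjamini-Hochberg over all genes or all 159073 probe sets tested, 95% intervals of the fit). The steps were tested on simulated data. Named genes were all members, pathway genes at an unadjusted p under 0.05 and the 4 with the smallest, the 5 nearest patterns to the member with the smallest p, the clock genes and the cell type markers. Pygb, Ppp1r3g and Dcpp1 were named after their values were seen. In the simulated data the fit over single probe sets recovered few changes, so an absence of calls there says little. The members, lists, clock genes and alternatives were chosen with earlier results of these data known. The clock covariate was planned on that basis, and leaving out both arrays at its ends was added after seeing the data.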

Additional observations from a re-analysis of the deposited data

How the results depend on the processing

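No glycogen gene and no other pathway gene passed 5% FDR in limma under the 17 alternatives run. All genes past 5% FDR numbered 0 in 16 alternatives and 1 without both arrays at the extremes of Dbp minus Arntl (Dcpp1, -1.45, limma adjusted p = 0.0414). Of the glycogen genes, 0 or 1 had an unadjusted p under 0.05 with single arrays left out, the 1 being Ppp1r3c without control replicate 2 or miR-143DOX replicate 3. Of the other pathway genes, 0 did with arrays centred on their medians, the lowest 50% left out, the median of probe sets, the clock covariate or both extremes left out, and 0 or 1 with single arrays left out. The median of the 9 differences, 0.054, ran from 0.041 to 0.14 with single arrays left out. It was 0.0029 with both extremes left out, 0.016 with the median of probe sets and 0.21 with the brightest probe set, where the median of all genes tested was 0.044. Signs turned for Gys2 (-0.0036) and Phka2 (-0.00072) with the median of probe sets, for Gyg (0.23) and Pygm (-0.18) with the brightest probe set, for Phka2 (-0.059) and Phkb (-0.074) with array weights, and for Pygl (-0.082) and Ppp1r3c (-0.026) with both extremes left out. The brightest setting uses 1 probe set a gene, and the last leaves 2 mice a group; other causes were not tested. With single arrays left out, Gys2 ran from -0.16 to 0.33, Ppp1r3b from -0.30 to 0.12, Phka2 from -0.11 to 0.083 and Phkb from -0.067 to 0.11. With the lowest 50% of genes left out Gyg and Pygm were not tested, so the 0 other pathway genes there does not speak to Pygm.

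All genes at an unadjusted p under 0.05 numbered 469, against 299 with the lowest 50% left out, 734 with the replicate block, 300 without miR-143DOX replicate 2, 1021 with array weights and 1128 without miR-143DOX replicate 3. The replicate numbers are shared by the groups, and same-numbered arrays correlated in their deviations at 0.107, 0.0468 and 0.296. miR-143DOX replicates 2 and 3 each correlated best with the control array of their own number. miR-143DOX replicate 1 correlated best with control replicate 2 (0.152). These values do not settle whether the numbers pair the mice. The reported fit took group as its single term, and the replicate block was run as an alternative. With the replicate block 0 glycogen genes passed 5% FDR.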
